A study of Mus musculus with 9 samples.

Results

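The 10 genes described here code for the proteins that decide what a cell does with pyruvate and lactate. They are the lactate dehydrogenase subunits Ldha and Ldhb, the monocarboxylate transporters Slc16a1 and Slc16a3, the pyruvate dehydrogenase kinases Pdk1, Pdk2, Pdk3 and Pdk4, and the mitochondrial pyruvate carrier subunits Mpc1 and Mpc2. They were chosen by name from a table of 46517 genes, and each symbol was found. The authors sequenced RNA of neutrophils from 3 compartments of C57BL/6 mice, the bone marrow, the blood and the pancreatic tumor, sorted on day 27 after 1242 L cells, a luciferase-expressing pancreatic tumor line derived from KPC mice, were injected into the pancreas (orthotopic transplanted, OT, mice). All 3 compartments carried the tumor transplant, so none of the 9 libraries analysed here came from a tumor-free mouse. There were 3 libraries per compartment. Per the study, the cells came from 3 independent experiments with 5 mice pooled in each, so a library is the mean of a pool. The spread between libraries of a compartment is that between pools. The study compares tumor neutrophils with those of blood and bone marrow from the same mouse, so libraries of different compartments may share a pool. Which of them do is not given in the sources used here. The gate was Dapi-CD45+Lin-Ly6G+Ly6C+, and the bone marrow cells were labelled Ly6G.hi rather than Ly6G+. Ages were not given in the sources used here.

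Neutrophils draw most of their energy from glycolysis, which ends in pyruvate. Lactate dehydrogenase converts pyruvate to lactate, and transporters of the SLC16 family carry lactate and a proton across the cell membrane. Pyruvate that is not turned into lactate can enter the mitochondrion through the carrier formed by MPC1 and MPC2 and is then converted to acetyl-CoA by pyruvate dehydrogenase, which the PDK kinases switch off by phosphorylation. RNA levels alone do not measure the flow of carbon through these steps.

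Between 4580807 and 7949367 reads per library were recovered from the deposited values. Mature neutrophil markers (10 of 10 with reads in every library) summed to 14420 to 16780 RPM (reads per 1000000 recovered) in tumor, 36960 to 38070 in blood and 45440 to 47010 in bone marrow. Immature neutrophil markers summed to 6813 to 10770 in tumor, 1908 to 2986 in blood and 73780 to 81970 in bone marrow. Markers of tumor epithelium, which has no place in the gate, summed to 2669 to 5672 in tumor, 156 to 297 in blood and 69.8 to 85.2 in bone marrow, with 11 of 11 detected in each tumor library. Fibroblast markers (8 of 8) summed to 1108 to 1363 and acinar cell markers (8 of 8) to 773 to 3211 RPM in tumor, against at most 10 and 4.4 in any other library. The macrophage marker sum was highest in blood, at 1409 to 1587, against 460 to 474 in bone marrow and 622 to 834 in tumor. Not every marker followed the sum, as Ms4a7 had no reads in blood. There 8 of 10 markers had reads in every library, against 10 of 10 in bone marrow and in tumor. Platelet markers (498 to 674 against at most 12.2), red cell markers (245 to 471 against at most 140) and lymphocyte markers (81.6 to 142 against at most 45.7) were also highest in blood. The endothelial sum was 55.0 to 88.7 in blood, where 2 of 6 markers had reads in every library and Cdh5 and Tek had none. In tumor it was 25.3 to 37.5, with 6 of 6 in every library. The part of these cells in the differences below was not tested, except where a value is given. In bulk RNA, fewer cells of a type and less RNA per cell cannot be told apart.

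For each gene, the level is given as exon RPKM, the reads per kilobase of the gene's merged exons (GENCODE M21) and per 1000000 of the library size as the authors scaled it. Differences are log2 fold changes of the deposited log2 FPKM values, tested with limma over 17714 genes with at least 5 reads in at least 1 library and adjusted by the Benjamini-Hochberg method, and the threshold was 0.05. All 10 genes passed this filter, Pdk4 through the tumor libraries alone, so that it had to differ if it was tested at all. It is among the genes counted as higher in tumor in both tumor comparisons.

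Of the 10 genes, 6 were higher and 2 were lower in tumor than in blood, where 33.8% of all genes tested were higher and 21.1% lower (54.9% in either direction). Against bone marrow, 5 were higher and 3 lower in tumor, where 26.9% of all genes were higher and 19.5% lower (46.5% in either direction). In blood against bone marrow, 3 were higher and 5 lower, and of all genes 13.7% were higher and 18.1% lower (31.8% in either direction). The median log2 fold change of the 10 was 1.37, 0.66 and -0.24 in these 3 comparisons, in that order, beside 0.50, 0.29 and 0 over all genes tested. The libraries of the compartments did not overlap for 6, 9 and 8 of the 10 genes in the 3 comparisons, as for 59.4%, 55.7% and 45.2% of all genes. With 31.8% to 54.9% of all genes called in each comparison, the counts alone say little of these genes, and the levels of the single genes are what the data add. The comparisons share libraries with each other and are not independent.

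Ldha, Slc16a1 and Pdk1 rose in tumor against both other compartments while Mpc1 fell against both, and the bases just upstream of their start sites are shown. Pdk2 and Pdk4 were also called higher against both and Pdk3 lower against both, and for these only counts are given. Each is the stretch of 250 bases before a RefSeq start (GRCm38.p6), the upstream one of the 2 that RefSeq lists for Ldha, Pdk1 and Mpc1, written 5′ to 3′ on the strand of the gene. Capitals mark ACGTG or GCGTG on either strand, the letters of the core that hypoxia-inducible factors are known to bind. The windows lie at chr7:46845554-46845803 for Ldha, chr3:104638414-104638663 for Slc16a1, chr2:71872974-71873223 for Pdk1 and chr17:8283537-8283786 for Mpc1, all on the plus strand.
Ldha: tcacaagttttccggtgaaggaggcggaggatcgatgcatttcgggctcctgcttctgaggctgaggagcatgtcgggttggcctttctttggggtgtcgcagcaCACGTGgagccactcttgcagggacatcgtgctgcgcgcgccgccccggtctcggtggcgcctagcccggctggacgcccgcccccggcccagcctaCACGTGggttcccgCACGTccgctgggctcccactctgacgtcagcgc
Slc16a1: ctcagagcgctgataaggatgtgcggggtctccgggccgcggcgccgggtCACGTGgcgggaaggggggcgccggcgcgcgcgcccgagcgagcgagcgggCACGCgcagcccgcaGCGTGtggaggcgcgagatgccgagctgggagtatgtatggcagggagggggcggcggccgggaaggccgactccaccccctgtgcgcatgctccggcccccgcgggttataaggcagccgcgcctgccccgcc
Pdk1: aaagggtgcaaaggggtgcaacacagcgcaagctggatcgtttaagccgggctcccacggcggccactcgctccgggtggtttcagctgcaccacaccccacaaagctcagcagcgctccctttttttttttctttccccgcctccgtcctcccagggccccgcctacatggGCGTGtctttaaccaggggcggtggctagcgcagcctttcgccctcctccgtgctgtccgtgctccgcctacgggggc
Mpc1: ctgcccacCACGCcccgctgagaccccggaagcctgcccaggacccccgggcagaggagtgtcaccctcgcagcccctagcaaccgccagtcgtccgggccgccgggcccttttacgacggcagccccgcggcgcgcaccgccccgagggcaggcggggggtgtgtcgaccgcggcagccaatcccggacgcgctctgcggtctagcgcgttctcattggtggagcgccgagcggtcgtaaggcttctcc
Ldha and Slc16a1 held 3 marked stretches each, and Pdk1 and Mpc1 held 1 each. The windows of the downstream starts of Ldha, Pdk1 and Mpc1, not shown, held 1, 0 and 0 stretches. The palindrome CACGTG, which contains ACGTG on both strands, stood 2 times upstream of Ldha and 1 time each upstream of Slc16a1 and of Pdk2 (upstream start). Of 32851 mouse promoter windows of the same length, 38.6% held ACGTG or GCGTG, 4.56% held 3 or more separate stretches and 6.02% held CACGTG. The window of Pdk3, which was lower in tumor than in bone marrow, held 4 stretches. Those of Pdk2 (upstream start) and Pdk4 held 1 each, as did those of Ldhb and Mpc2. Slc16a3, not called in either tumor comparison, held 2. These are matches of letters, and no binding was measured.

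The lactate dehydrogenase subunits differed in level by 2 orders of magnitude. Ldha (ENSMUSG00000063229.13, chr7:46841475-46855627) codes for the subunit that favors lactate formation. Its exon RPKM was 532, 531 and 477 in the 3 bone marrow libraries, 325, 409 and 375 in blood and 960, 1214 and 798 in tumor. Each tumor library was above every other library, and blood was below bone marrow with no overlap. Ldha was 2.65-fold higher in tumor than in blood (log2 fold change 1.41, SE 0.16, adjusted p = 2.93e-05) and 1.90-fold higher than in bone marrow (0.93, SE 0.16, adjusted p = 0.000596). With quantile normalization the first value was 2.06. It was lower in blood than in bone marrow by a smaller amount (-0.48, SE 0.16, adjusted p = 0.0375, limma), a call that was lost without blood replicate 1 or 3, tumor replicate 1 or any bone marrow library (-0.39 to -0.53, adjusted p from 0.0628 to 0.131).

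Ldhb (ENSMUSG00000030246.10, chr6:142490249-142507957) codes for the subunit that favors the conversion of lactate back to pyruvate, and it was read rarely. The bone marrow libraries held 80, 61 and 66 reads, the blood libraries 9, 17 and 4, and the tumor libraries 37, 31 and 36. In exon RPKM, bone marrow was highest (6.94 ± 0.65, SD, n = 3), tumor next (3.10 ± 0.62) and blood lowest (1.31 ± 0.71), with no overlap between any of the 3. The difference between blood and bone marrow was the largest (log2 fold change -2.56, SE 0.47, adjusted p = 0.00186). Ldhb was higher in tumor than in blood (1.39, SE 0.47, adjusted p = 0.0272), which did not hold without blood replicate 3 (0.86, adjusted p = 0.0736) or without tumor replicate 1, 2 or 3 (1.23 to 1.5, adjusted p from 0.0504 to 0.0915). With quantile normalization it was 0.06 (adjusted p = 0.920). In tumor against bone marrow the log2 fold change was -1.17 (SE 0.47), which did not pass the test (adjusted p = 0.0616) but did so in 7 other settings. Among these were limma-voom on recovered reads (adjusted p = 0.00940), quantile normalization (-2.01, adjusted p = 0.00367, limma) and the fits without blood replicate 2 or 3 (adjusted p = 0.0439 and 0.0136, limma).

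A ratio of 2 genes within a library does not depend on how library sizes were scaled. The log2 ratio of Ldha to Ldhb was 6.21 ± 0.08 in bone marrow, and it was higher in blood (8.29 ± 0.94) and tumor (8.31 ± 0.47, SD, n = 3 libraries each). On the linear scale the Ldha level per length was 317 times that of Ldhb in tumor, 312 times in blood and 73.8 times in bone marrow (geometric means). The 3 compartments differed (one-sided exact permutation test over 280 arrangements, p = 0.0357, adjusted over 4 ratios p = 0.0357). Bone marrow stood apart, while the tumor and blood ratios overlapped and their means differed by 0.02, less than the SD of either. The blood value rests on the 4 to 17 reads of Ldhb there.

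**Figure D1:**
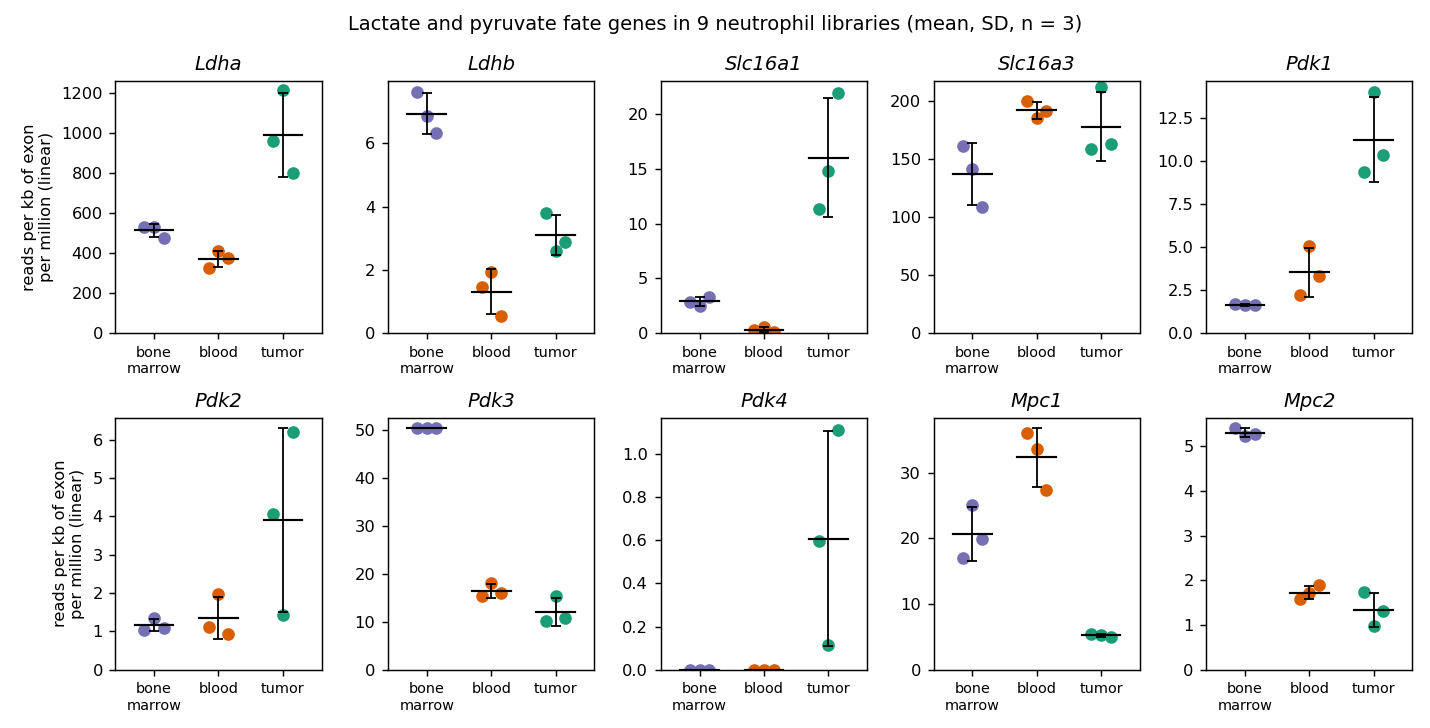
Exon RPKM (reads per kilobase of exon, scaled to library size, linear axes from 0) of the 10 genes in each of the 9 libraries, by compartment; points are libraries, long bars the mean and error bars the SD of 3 libraries. Ldha, Slc16a1 and Pdk1 have all 3 tumor libraries above the other 6, Mpc1 has them below, and Pdk3 and Mpc2 are highest in bone marrow.

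The transporters showed the widest contrast between 2 genes of one family. Slc16a1 (ENSMUSG00000032902.1, chr3:104638668-104658462) codes for MCT1, a high-affinity carrier that moves lactate in either direction. The libraries held 84, 62 and 98 reads in bone marrow, 5, 14 and 2 in blood and 311, 496 and 771 in tumor. Exon RPKM was 2.84, 2.48 and 3.33 in bone marrow, 0.286, 0.566 and 0.0964 in blood and 11.3, 14.8 and 21.9 in tumor, so the 3 compartments did not overlap. Slc16a1 was 59.3-fold higher in tumor than in blood (log2 fold change 5.89, SE 0.52, adjusted p = 6.5e-06) and 5.38-fold higher than in bone marrow (2.43, SE 0.52, adjusted p = 0.00304). It was lower in blood than in bone marrow (-3.46, SE 0.52, adjusted p = 0.000557). The size of the fold against blood rests on 2 to 14 reads, and it ranged from 4.41 to 6.46 on the log2 scale over 22 other settings of the fit, all of which called it. Without blood replicate 3, the library with 2 reads, it was 5.23 against blood, and blood against bone marrow was -2.80.

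Among the tumor libraries, replicate 3 had the highest Slc16a1 level and also the highest summed markers of tumor epithelium (5672 RPM, against 3468 and 2669 in replicates 1 and 2) and of acinar cells (3211 against 1077 and 773). The other order differed, as Slc16a1 was higher in replicate 2 than in replicate 1 while both marker sums were lower. Ldha and Pdk1 were highest in replicate 2, where both marker sums were lowest. The part of these cells in the levels of Slc16a1, Ldha and Pdk1 was not tested.

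Slc16a3 (ENSMUSG00000025161.15, chr11:120948480-120960868) codes for MCT4, the carrier known for lactate export from glycolytic cells. Exon RPKM was 161, 141 and 108 in bone marrow, 200, 185 and 192 in blood and 158, 212 and 163 in tumor. The blood libraries lay within the range of the tumor libraries. In tumor against blood the log2 fold change was -0.12 (SE 0.16, adjusted p = 0.530) and in tumor against bone marrow 0.38 (SE 0.16, adjusted p = 0.0717), neither of which passed the test. Slc16a3 was higher in blood than in bone marrow (0.51, SE 0.16, adjusted p = 0.0329). The scaling of library sizes bears on this gene: with plain library totals, which move the median of all genes by 0.45 in favor of tumor, the tumor against blood value was 0.32, and with quantile normalization it was 0.75 and passed the test (adjusted p = 0.000534, in a range of 0.000534 to 0.853 over 22 other settings). The call between blood and bone marrow was lost without tumor replicate 1 or 3, bone marrow replicate 2 or 3, or any blood library (0.35 to 0.54, adjusted p from 0.0582 to 0.127), and without bone marrow replicate 1 the tumor against bone marrow value of 0.51 passed (adjusted p = 0.0366). That comparison also passed with plain totals (0.84, adjusted p = 0.00044), quantile normalization (0.88, adjusted p = 0.000199) and limma-voom on recovered reads (0.39, adjusted p = 0.0386).

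In every library Slc16a3 was the more abundant of the 2 carriers. The log2 ratio of Slc16a3 to Slc16a1 was lowest in tumor (3.51 ± 0.54), then 5.56 ± 0.47 in bone marrow, and highest in blood (9.53 ± 1.26, SD, n = 3 libraries each), and the ranges did not overlap. On the linear scale these are ratios of 11.4, 47.1 and 738 (geometric means). The 3 compartments differed (exact permutation test over 280 arrangements, one-sided p = 0.00357, the smallest it can give, adjusted p = 0.00714). The shift lay in Slc16a1, as the mean exon RPKM of Slc16a3 stayed between 137 and 192 in the 3 compartments while that of Slc16a1 ran from 0.316 in blood to 2.88 in bone marrow and 16.0 in tumor.

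**Figure D2:**
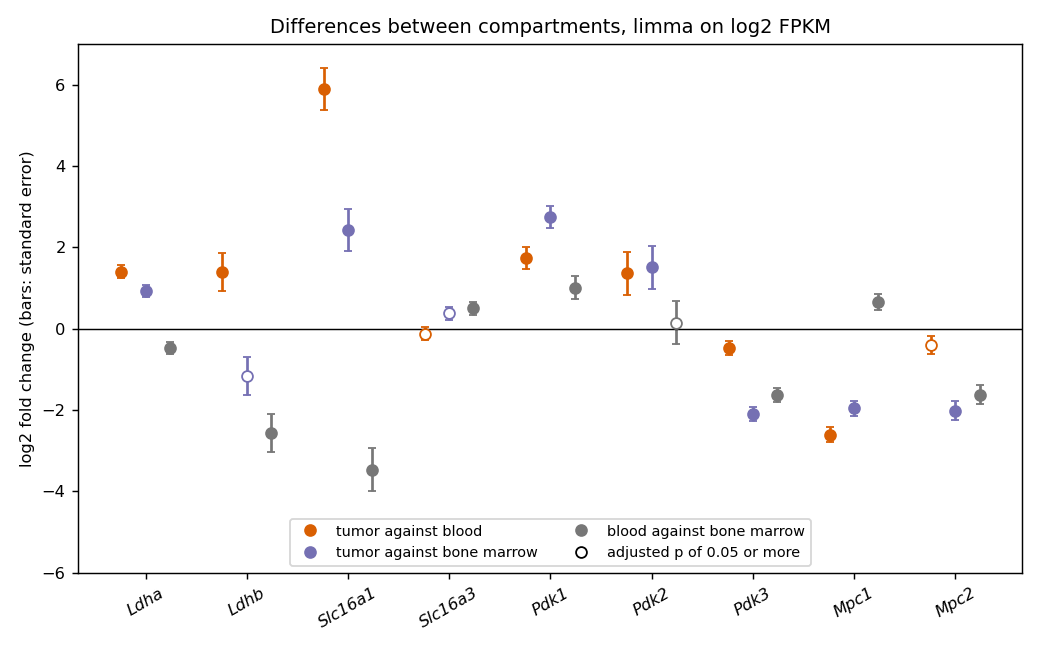
Log2 fold change of 9 of the 10 genes in tumor against blood, tumor against bone marrow and blood against bone marrow (limma on log2 FPKM, bars are the standard error). Open circles did not pass the adjusted p threshold of 0.05; Pdk4 has no read in bone marrow and blood and is left out, and Slc16a1 spans the widest range, from -3.46 to 5.89.

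The 4 pyruvate dehydrogenase kinases did not move together. Pdk1 (ENSMUSG00000006494.10, chr2:71873224-71903858), an isoform known for its induction by low oxygen, had an exon RPKM of 1.71, 1.61 and 1.63 in bone marrow, 2.21, 5.06 and 3.29 in blood and 9.36, 14.0 and 10.3 in tumor. The levels stepped up from bone marrow to blood to tumor with no overlap. Pdk1 was 3.32-fold higher in tumor than in blood (log2 fold change 1.73, SE 0.28, adjusted p = 0.000355), 6.70-fold higher in tumor than in bone marrow (2.74, adjusted p = 1.88e-05) and 2.02-fold higher in blood than in bone marrow (1.01, adjusted p = 0.0170). The last of these calls was lost without blood replicate 2 (0.71, adjusted p = 0.0601) or bone marrow replicate 2 or 3 (adjusted p = 0.0528 and 0.0558, limma).

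Pdk3 (ENSMUSG00000035232.8, chrX:93764607-93832201), the kinase with the highest level per length in every library, went the other way. Its exon RPKM was 50.4, 50.4 and 50.5 in bone marrow, 15.3, 18.1 and 15.9 in blood and 10.1, 15.4 and 10.7 in tumor. Bone marrow was far above the other compartments, and blood and tumor overlapped by a single tumor library. Pdk3 was 4.25-fold lower in tumor than in bone marrow (log2 fold change -2.09, SE 0.17, adjusted p = 4.83e-06) and 3.07-fold lower in blood than in bone marrow (-1.62, adjusted p = 5.6e-05). The smaller difference between tumor and blood passed the test (-0.47, adjusted p = 0.0394), and 14 of 22 other settings of the fit lost it, among them those without tumor replicate 1 or 3, or any blood or bone marrow library (-0.35 to -0.52, adjusted p from 0.0538 to 0.121).

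Pdk2 (ENSMUSG00000038967.12, chr11:95026258-95041354), a broadly expressed isoform, had 22, 24 and 23 reads in bone marrow, 14, 35 and 14 in blood and 80, 34 and 156 in tumor. The tumor libraries were far apart, with exon RPKM of 4.08, 1.42 and 6.21, and replicate 2 lay within the range of blood. The log2 fold change was 1.36 against blood (SE 0.53, adjusted p = 0.0477) and 1.51 against bone marrow (SE 0.53, adjusted p = 0.0360), both called higher. Of 21 other settings, 15 lost the first call and 10 the second. Without tumor replicate 2 the values were 1.97 and 2.12, and with quantile normalization 0.30 and 0.74 (adjusted p = 0.679 and 0.299, limma). Without tumor replicate 3 the values were 0.91 and 1.06 (adjusted p = 0.195 and 0.153), without tumor replicate 1 they were 1.21 and 1.36 (adjusted p = 0.150 and 0.129), and without any 1 bone marrow library both calls were lost as well (adjusted p from 0.0649 to 0.0961). Without blood replicate 1 or 3 the call against blood was lost (1.27 and 1.14, adjusted p = 0.112 and 0.135). In blood against bone marrow it was 0.15 (adjusted p = 0.902), and -0.16 without blood replicate 2.

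Pdk4 (ENSMUSG00000019577.5, chr6:5483351-5496309), an isoform known for its induction by fasting and fatty acids, had 0 reads in all 6 bone marrow and blood libraries and 13, 3 and 31 reads in tumor. Against 3 reads over the 3 libraries, the limit that a count of 0 allows, its tumor level was at least 10.3-fold higher than that of blood and at least 13.7-fold higher than that of bone marrow. No p is given, since its reads in tumor alone brought it past the filter. These limits cover counting error only, and without tumor replicate 3 they were 5.51-fold and 7.36-fold. The tumor libraries stood in the same order for Pdk2 and Pdk4 as for the summed epithelial and acinar markers, replicate 3 highest and replicate 2 lowest, and the part of those cells in both genes was not tested.

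The share of each kinase in the level per length changed between compartments, while by this measure Pdk3 stayed first and Pdk1 came second in every library. Of the summed exon RPKM of the 4 kinases, Pdk3 made up 94.7% ± 0.23, 77.7% ± 5.19 and 43.1% ± 6.06 in bone marrow, blood and tumor (SD, n = 3). Pdk1 made up 3.10% ± 0.10, 16.1% ± 4.14 and 40.2% ± 4.62 in the same order, and Pdk2 2.18% ± 0.30, 6.19% ± 1.60 and 14.5% ± 8.91. Pdk4 reached 2.25% ± 1.79 in tumor. The sum of the 4 was highest in bone marrow, at 53.2 ± 0.10 exon RPKM, against 21.3 ± 3.41 in blood and 27.8 ± 3.46 in tumor. The mixture in tumor thus differed from that in bone marrow. The shares, their order and the sum depend on the merged exon lengths, 7779 bases for Pdk1 and 2561 for Pdk3. Without division by length, Pdk1 had more reads than Pdk3 in tumor (452, 826 and 638 against 160, 298 and 218), and fewer in each bone marrow and blood library. The log2 ratio of Pdk1 to the sum of the other 3 stepped up from -4.96 ± 0.05 in bone marrow through -2.41 ± 0.45 in blood to -0.58 ± 0.28 in tumor, with no overlap (exact permutation test over 280 arrangements, one-sided p = 0.00357, adjusted p = 0.00714).

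**Figure D3:**
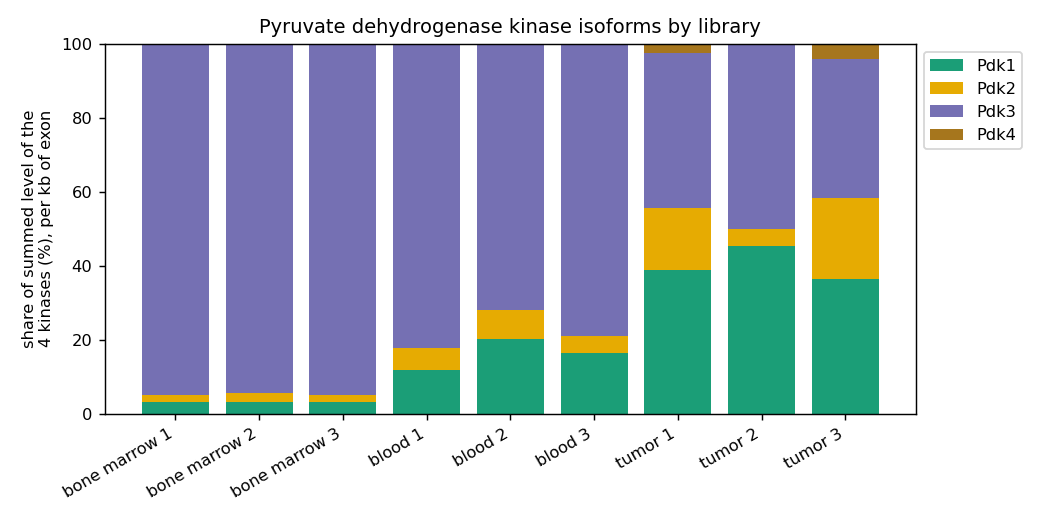
Share of each pyruvate dehydrogenase kinase in the summed exon RPKM of the 4 kinases (percent, stacked), for each library. Pdk3 falls from over 94% in the bone marrow libraries to between 37.8% and 49.7% in tumor, where Pdk1 holds 36.4% to 45.4%.

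MPC1 and MPC2 form the mitochondrial pyruvate carrier together, and neither works without the other. Mpc1 (ENSMUSG00000023861.16, chr17:8282904-8297661) had an exon RPKM of 17.0, 25.0 and 19.9 in bone marrow, 36.0, 33.6 and 27.4 in blood and 5.50, 5.27 and 5.02 in tumor. All 3 tumor libraries were far below the other 6, and blood was above bone marrow. Mpc1 was 6.09-fold lower in tumor than in blood (log2 fold change -2.61, SE 0.19, adjusted p = 1.58e-06) and 3.87-fold lower than in bone marrow (-1.95, SE 0.19, adjusted p = 1.33e-05). It was 1.57-fold higher in blood than in bone marrow (0.65, adjusted p = 0.0208), a call that was lost without blood replicate 1 or 2 or bone marrow replicate 1 or 3 (0.52 to 0.64, adjusted p from 0.0641 to 0.0880). A processed copy, Mpc1-ps, held 21.6% to 25.3% as many reads as Mpc1 in the 3 compartments, and how the authors' counting split reads between them is not given in the sources used here, so the Mpc1 counts are uncertain. An antisense gene that overlaps Mpc1, 4930506C21Rik, had 1 to 16 reads per library, and the protocol kept no strand.

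Mpc2 (ENSMUSG00000026568.6, chr1:165460637-165481214) fell at another step. Its exon RPKM was 5.42, 5.22 and 5.27 in bone marrow, 1.59, 1.71 and 1.89 in blood and 1.73, 0.972 and 1.32 in tumor. Blood and tumor overlapped, and both were below bone marrow. Mpc2 was 3.07-fold lower in blood than in bone marrow (log2 fold change -1.62, SE 0.23, adjusted p = 0.000391) and 4.05-fold lower in tumor than in bone marrow (-2.02, SE 0.23, adjusted p = 4.6e-05). In tumor against blood the value was -0.40 (SE 0.23, adjusted p = 0.167), and with plain library totals it was 0.05. It passed with quantile normalization (-1.33, adjusted p = 0.00123) and without tumor replicate 1 (-0.60, adjusted p = 0.0261).

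The log2 ratio of Mpc1 to Mpc2 was highest in blood (4.22 ± 0.33), against 1.94 ± 0.31 in bone marrow and 2.01 ± 0.39 in tumor (SD, n = 3). The blood libraries stood apart, and bone marrow and tumor overlapped (exact permutation test over 280 arrangements, one-sided p = 0.0250, adjusted p = 0.0333). Tumor neutrophils thus had nearly the ratio of bone marrow at a lower level of both transcripts. The ratio itself depends on the merged exon length of 7344 bases for Mpc2, which includes retained introns, while its change between compartments does not.

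**Figure D4:**
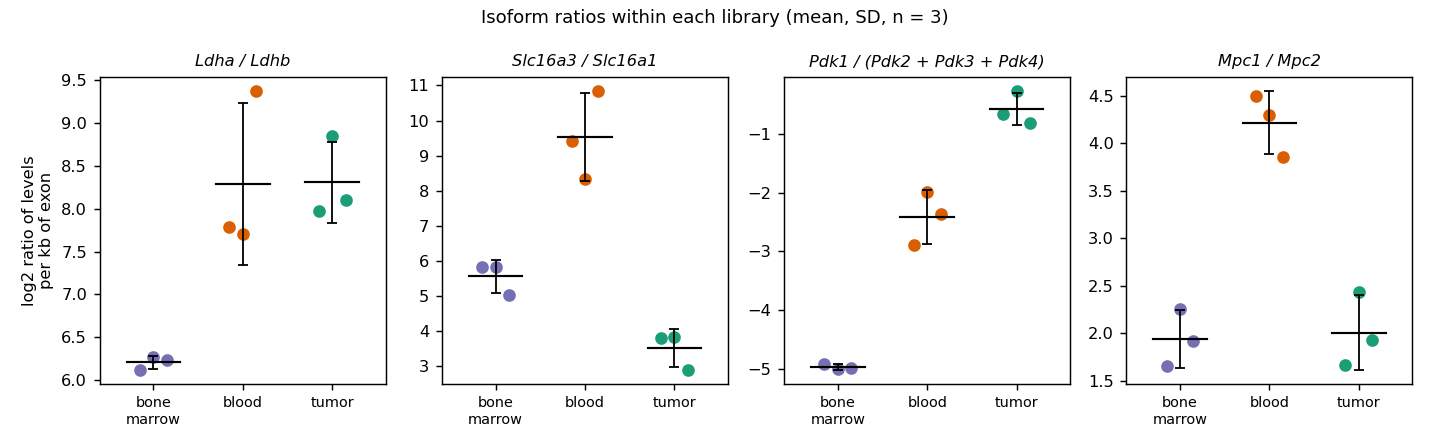
Log2 ratio of levels per kilobase of exon within each library for Ldha to Ldhb, Slc16a3 to Slc16a1, Pdk1 to the sum of Pdk2, Pdk3 and Pdk4, and Mpc1 to Mpc2; points are libraries, bars the mean and SD of 3 libraries, and the axes do not start at 0. Tumor stands apart from both other compartments in the panels of the Slc16 and Pdk genes, bone marrow in that of the Ldh genes and blood in that of the Mpc genes.

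Around these 10 genes, 24 others that act on pyruvate or lactate were listed, of which 20 passed the filter (Slc16a8, Slc5a12, Ldhal6b and Me3 did not). In tumor against blood 9 were higher and 2 lower, in tumor against bone marrow 7 were higher and 4 lower, and in blood against bone marrow 2 were higher and 7 lower. The shares of all genes were 33.8% and 21.1%, 26.9% and 19.5%, and 13.7% and 18.1%. Me1 and Ldhc are among those counted, and they passed the filter through the compartment where they were high. The median log2 fold changes of the 20 were 1.26, 0.45 and -0.47, beside 0.50, 0.29 and 0 over all genes.

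The pyruvate dehydrogenase complex is what the PDK kinases act on. Of its 5 genes, 4 were higher in tumor than in blood (33.8% of all genes) and 1 was higher than in bone marrow (26.9%). In blood 4 of the 5 were lower than in bone marrow (18.1%). Pdhx, the component that binds the E3 subunit, passed all 3 tests (log2 fold changes of 2.11, 0.84 and -1.27, adjusted p = 0.000177, 0.0426 and 0.00842), the second of which was lost without bone marrow replicate 1 or 2 or tumor replicate 2 or 3 (adjusted p from 0.0980 to 0.121). Pdhb, Dlat and Dld were higher in tumor than in blood by 0.88, 1.35 and 0.62 (adjusted p = 0.00023, 0.000921 and 0.0118, limma), and against bone marrow none of them passed. The Dld call was lost without blood replicate 2 (adjusted p = 0.0504, limma), and Pdhb passed against bone marrow without tumor replicate 1 (adjusted p = 0.0316). Pdhb and Dlat were lower in blood than in bone marrow (-0.55 and -1.08, adjusted p = 0.00842 and 0.00682, limma). Pdha1, the catalytic subunit whose product the kinases phosphorylate, was lower in blood than in bone marrow (-0.56, adjusted p = 0.0214), which was lost without blood replicate 1 or 3 or any bone marrow library (adjusted p from 0.0551 to 0.0748), and it did not pass in tumor against either, except against blood without tumor replicate 2 (0.46, adjusted p = 0.0113). Pdp1, a phosphatase that reverses the phosphorylation, was 12.9-fold higher in tumor than in blood (3.69, SE 0.50, adjusted p = 0.000117) and 3.81-fold higher than in bone marrow (1.93, SE 0.50, adjusted p = 0.00861), with 62 to 146 reads per tumor library and 3 to 8 per blood library. With quantile normalization the values were 2.77 and 1.21, and the call against bone marrow was lost (adjusted p = 0.0749, limma). It was lower in blood than in bone marrow (-1.76, adjusted p = 0.0203), a call lost without blood replicate 2 or 3 or bone marrow replicate 1 or 3 (adjusted p from 0.0525 to 0.0649). In tumor, Pdp1 was highest in replicate 3 (exon RPKM 4.08, against 2.22 and 2.70 in replicates 1 and 2). Replicate 3 also had the most epithelial and acinar marker reads, while replicates 1 and 2 stood in the other order. The part of those cells was not tested. Transcripts of a kinase, Pdk1, and of a phosphatase of the same enzyme, Pdp1, were thus both higher in tumor. The kinases did not all rise, as Pdk3 was 4.25-fold lower in tumor than in bone marrow. Pdp2, another phosphatase, passed in neither tumor comparison (2.08 and 2.39, SE 1.03, adjusted p = 0.109 and 0.0797, limma). The second passed without bone marrow replicate 1 or blood replicate 3 (adjusted p = 0.0457 and 0.0347). Of the 3 phosphatase genes, 1 was higher and 1 lower in tumor than in blood (33.8% and 21.1% of all genes). Pdpr, a regulatory subunit of the phosphatase, was lower in tumor than in blood (-1.49, adjusted p = 0.0400), which was lost when any library but tumor replicate 1 or 3 was left out (adjusted p from 0.0575 to 0.0975). It had 17 reads in tumor replicate 3 against 83 and 78 in replicates 1 and 2, and without replicate 3 the log2 fold change was -0.68 (adjusted p = 0.0335, limma).

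The chaperones that bring SLC16 transporters to the membrane moved in opposite directions. Bsg, which codes for basigin, the partner of MCT1 and MCT4, had an exon RPKM of 60.2, 52.7 and 57.6 in bone marrow, 66.7, 71.9 and 52.8 in blood and 276, 330 and 287 in tumor. It was 4.69-fold higher in tumor than in blood (log2 fold change 2.23, SE 0.14, adjusted p = 6.86e-07) and 5.23-fold higher than in bone marrow (2.39, adjusted p = 4.39e-07). Emb, which codes for embigin, another partner of MCT1, had 124, 131 and 126 in bone marrow, 165, 187 and 167 in blood and 27.7, 30.5 and 22.5 in tumor. It was 6.48-fold lower in tumor than in blood (-2.70, SE 0.13, adjusted p = 1.33e-07) and 4.75-fold lower than in bone marrow (-2.25, adjusted p = 3.35e-07), and 1.36-fold higher in blood than in bone marrow (adjusted p = 0.0193, limma, and 0.0580 to 0.0724 without bone marrow replicate 1 or 3 or blood replicate 2). With quantile normalization the values against blood were 2.85 for Bsg and -1.92 for Emb. Embigin transcripts were thus the more abundant of the 2 outside the tumor, and basigin transcripts within it. Slc16a7, which codes for MCT2, had 17 to 44 reads per library in bone marrow and 0 to 17 in tumor (-3.53, SE 1.27, adjusted p = 0.0418), and its libraries overlapped. That call was lost when any library but tumor replicate 1 was left out (adjusted p from 0.0541 to 0.140), with values of -1.90 without tumor replicate 2 and -5.03 without tumor replicate 1. Without tumor replicate 1 Slc16a7 was also lower in tumor than in blood (adjusted p = 0.0188, limma).

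**Figure D5:**
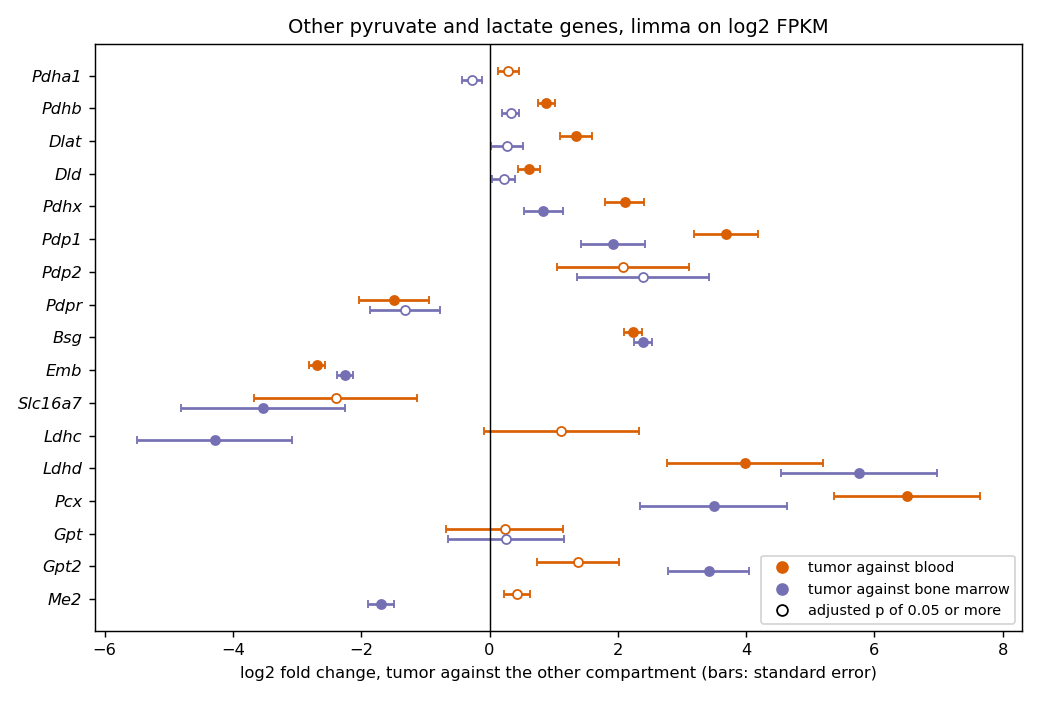
Log2 fold change of other pyruvate and lactate genes in tumor against blood and against bone marrow (limma on log2 FPKM, bars are the standard error, open circles did not pass the adjusted p threshold of 0.05). Genes with no read in a whole compartment, Me1 among them, are left out; Bsg is above 2 and Emb below -2 in both.

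Of 5 tested enzymes of other routes into and out of pyruvate, 2 were higher in tumor than in blood (beside 33.8% of all genes), and 3 were higher and 1 lower in tumor than in bone marrow (beside 26.9% and 19.5%). Gpt, a cytosolic alanine transaminase, passed in no comparison. Me1, the cytosolic malic enzyme that makes pyruvate and NADPH from malate, had 0 reads in bone marrow, 1 read in blood and 1301 in the 3 tumor libraries together. It was at least 379-fold higher in tumor than in bone marrow, and 852-fold higher than in blood with a 95% counting interval from 153 to 33690. Pcx, which turns pyruvate into oxaloacetate, had 1, 10 and 0 reads in blood and 130 to 217 in tumor. It was higher in tumor than in blood (log2 fold change 6.51, SE 1.14, adjusted p = 0.000681), by 7.89 without blood replicate 2, 5.06 without blood replicate 3 and 1.59 with 0.1 FPKM added before the log. It was also higher than in bone marrow (3.49, SE 1.14, adjusted p = 0.0276), where the call was lost without any 1 tumor or bone marrow library (adjusted p from 0.0531 to 0.117). Without blood replicate 2, Pcx was also lower in blood than in bone marrow (adjusted p = 0.00736, limma). Gpt2, a mitochondrial alanine transaminase, was higher than in bone marrow both in tumor (3.41, SE 0.64, adjusted p = 0.00125) and in blood (2.03, SE 0.64, adjusted p = 0.0325), the latter lost when any library but blood replicate 1 was left out (adjusted p from 0.0533 to 0.128) and 2.72 without that one. Me2, a mitochondrial malic enzyme, was lower than in bone marrow in tumor (-1.69, SE 0.21, adjusted p = 6.87e-05) and in blood (-2.12, SE 0.21, adjusted p = 2.91e-05). In tumor, Me1 was highest in replicate 3 (exon RPKM 20.9, against 11.9 and 13.1), which also had the most epithelial and acinar marker reads. Gpt2 stood in the full order of those markers (9.39 in replicate 3, 3.74 in replicate 1 and 2.84 in replicate 2). The part of those cells was not tested.

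Of the other lactate dehydrogenases, Ldhd, which acts on D-lactate, was higher in tumor than in blood (log2 fold change 3.98, SE 1.22, adjusted p = 0.0170) and than in bone marrow (5.76, SE 1.22, adjusted p = 0.00267). The first was lost without blood replicate 1 or any tumor library (adjusted p from 0.0614 to 0.0936), and without blood replicate 1 the value was 3.08. Against bone marrow it was 4.25 without bone marrow replicate 3 and 6.80 without bone marrow replicate 1. In tumor its exon RPKM also stood in the order of the epithelial and acinar markers (4.18, 2.84 and 2.23 in replicates 3, 1 and 2), and the part of those cells was not tested. Ldhc, known from testis, had 32, 18 and 12 reads in bone marrow and at most 4 in any other library, and it passed the filter through bone marrow alone, so that no p is given. With 1 read in blood and 62 in bone marrow, it was 46.5 times lower in blood, with a 95% counting interval from 8.03 to 1864. Ldhc lies next to Ldha on chromosome 7. Hcar1, the lactate receptor, had no more than 5 reads in any library, and no difference was detectable at this depth.

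The genes whose pattern over the 9 libraries was closest to that of Ldha, among 8251 genes with a mean of at least 50 reads per library, were Opa3, Zfp386, Optn, M6pr and Eif2s2. Likeness was the root mean square distance of centred log2 values, which was 0.14, 0.15, 0.15, 0.16 and 0.17 for these and 0.93 for the median gene. Ldhb, Pdk2 and Pdk4 had too few reads to be compared, and none of the remaining genes of the group was among the 5 closest.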

How the data were processed

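Neutrophil RNA was sequenced in 9 libraries, 3 per compartment. Per the study's methods and the submitters' processing notes, the authors made cDNA with SMARTSeq v2, which keeps no strand, mapped reads with STAR 2.5.2b to GRCm38 and counted them with featureCounts 1.5.0 on GENCODE M7 genes. The deposited values are log2 FPKM for 46517 genes. From the values, 0.25 reads in a library of mean size were added before the log, library sizes were scaled, and the length was the genomic span for 84.8% of the 46005 identifiers found in GENCODE M21, including all 10 genes described here. Low values rise in steps of 1 read, from which whole reads were recovered for each of the 46517 genes, and values rebuilt from them differed by at most 0.000496. The added constant rests on a mean library size larger than that of the 9 libraries (ratio 0.882).

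The 10 genes, the gene lists and the tests were chosen with earlier results of these data known. Contrasts were tested with limma 3.58.1 in R 4.3.3 (eBayes with a trend on mean log2 RPM, 3 compartments fitted together), for genes with at least 5 reads in at least 1 library, with Benjamini-Hochberg adjustment over all 17714 and a threshold of 0.05. The study's methods name limma-voom, which was run on the recovered reads as an alternative. Within-library ratios were compared by exact permutation in Python 3.11.15. The steps were tested on simulated data. Which libraries came from the same mice is not given in the sources used here. They were treated as unpaired, since same-numbered ones correlated at only -0.1 to 0.0236 once compartment means were removed. Apart from a refit with the replicate number as a block, no test used a pairing of compartments by experiment. Depth was 4580807 to 7949367 reads, with PCR duplicates kept, so intervals and limits from counts cover counting error only. Promoter sequences are from RefSeq (GRCm38.p6) and gene positions from GENCODE M21; all 10 genes were found in both. Named were the 10 genes, the listed pathway genes that passed in both tumor contrasts or in blood against bone marrow, and the 5 genes closest to Ldha. Dld, Pdp2, Pdpr, Slc16a7, Slc16a8, Slc5a12, Ldhal6b, Me3, Gpt and Hcar1 were named after their values were seen. Alternatives to the filter, the added constant, the scaling, the variance model and the set of libraries were tried.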

Additional observations from a re-analysis of the deposited data

How the results depend on the processing

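Every within-library ratio kept its call in all alternatives run, with adjusted p from 0.00952 to 0.0464 for Ldha to Ldhb, 0.0191 to 0.0429 for Mpc1 to Mpc2 and 0.00714 for the other two when 1 library was left out. Of 648 refits of the 10 genes' contrasts, 554 gave the same call, 77 lost it, 13 gained one and 4 reversed the sign. The 4 were Mpc2 in tumor against blood with plain totals (0.0504), Slc16a3 there with plain totals (0.32) and quantile normalization (0.75), and Pdk2 in blood against bone marrow without blood replicate 2 (-0.16, and up to 0.37 without blood replicate 3). Plain totals move the median of all genes by 0.45 in both tumor contrasts.

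Of the 10 genes, 8 were called in each comparison. Leaving out 1 library gave 5 to 7 in tumor against blood and 4 to 8 in blood against bone marrow. With only the libraries of the compartments compared there were 5 in each of these. A filter of log2 FPKM over 0 in 3 libraries left 5 in tumor against blood. Without a trend there were 4, and with a minimum change of 1 on the log2 scale there were 5, in blood against bone marrow. Of the pathway genes, that filter left 7 in tumor against blood and 6 in tumor against bone marrow, and leaving out 1 library gave 7 to 12 in the latter and 5 to 8 in blood against bone marrow. Over all genes, the filter left 4926 calls (2206 higher, 2720 lower) in tumor against blood, 4366 (1763 and 2603) in tumor against bone marrow and 3544 between blood and bone marrow, where the reported fit called 9731 (5996 and 3735), 8229 (4770 and 3459) and 5635. The split was 7532 higher and 2576 lower in tumor against blood and 6606 and 2235 in tumor against bone marrow with plain totals, and 4257 and 5432, and 3672 and 4922, with quantile normalization. Fewer genes or libraries were tested under the filter and in the smaller fits; otherwise the cause was not tested.

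Same-numbered libraries correlated at -0.1 to 0.0236, and 0 of 9 correlated best with their own number in both other compartments. Bone marrow 1 did correlate most with blood 1 (0.0236), bone marrow 2 with tumor 2 (0.023) and tumor 3 with bone marrow 3 (0.0219). With correlations this small, a pairing by number can be neither shown nor excluded. With the replicate number as a block, 5 of the 10 genes were higher and 2 lower in tumor against blood. There were 4 and 3 in tumor against bone marrow, and 3 and 5 between blood and bone marrow. Genes with few reads, among them Ldhb, Pdk2 and Pdk4, and Slc16a1 in blood, are limited by depth.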

Other observations

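Other members of the SLC16 family were looked at after the values were seen. Slc16a13 had 4, 3 and 5 reads in bone marrow, 0, 2 and 0 in blood and 26, 53 and 102 in tumor, and its tumor level was higher than that of bone marrow (log2 fold change 3.47, SE 1.00, adjusted p = 0.0154, limma). Slc16a14 went the other way, with 66, 36 and 44 reads in bone marrow, 33, 145 and 90 in blood and 8, 17 and 15 in tumor, and was lower in tumor than in blood (-3.16, SE 0.45, adjusted p = 0.000157, limma). Slc16a6, the next most read member after Slc16a3 in bone marrow and blood, had 390 to 689 reads in tumor, 264 to 465 in blood and 302 to 395 in bone marrow, and passed in no comparison. In tumor, replicate 3 was highest for Slc16a13 and also for epithelial and acinar marker reads, and the part of those cells was not tested.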
